A study of Homo sapiens with 6 samples.

Results

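HSP90, HSP110, the small heat shock proteins, the cochaperone BAG3 and the heat shock factors were examined as 10 genes, taken by their gene symbols (HSP90AA1, HSP90AB1, HSPH1, HSPA4, HSPB1, HSPB8, CRYAB, BAG3, HSF1 and HSF2) from a table of 58656 gene rows. All 10 had a row, and 9 of them passed the filter on low counts, as did 16481 genes in all. The exception was CRYAB. Gene expression was measured by RNA sequencing of polyadenylated RNA in MDA-MB-231 cells, a widely used line from a human breast tumour of the triple-negative type, grown with fetal bovine serum. The 3 libraries of the treated group came from cells given mitocurcumin, a derivative of the plant polyphenol curcumin that is targeted to mitochondria, at 5 µM for 9 hours. The 3 control libraries came from cells given the DMSO vehicle for 9 hours. The labels name the replicates biological but do not say whether they were separate cultures, so p-values measure the spread between these libraries.

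HSP90 is an ATP-driven chaperone that completes the folding of kinases, steroid receptors and other clients, and in human cells HSP90AA1 encodes the stress-inducible alpha form and HSP90AB1 the largely constitutive beta form. HSP110 proteins release ADP from HSP70 and so reset its folding cycle, while small heat shock proteins bind unfolding proteins without using ATP. HSF1, the main transcription factor of the heat shock response, is held back by chaperones in unstressed cells, and on protein damage it forms trimers that bind heat shock elements, which are inverted repeats of the letters GAA.

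Because these elements are the known binding sites of heat shock factors, RefSeq promoter windows (GRCh38.p14, 250 bases before to 50 after a transcript start) were searched on both strands for GAANNTTC and TTCNNGAA, and for 3-unit forms, in which GAANNTTC is followed by NNGAA or TTCNNGAA by NNTTC. A 3-unit form thus holds both shorter motifs, which overlap in it. The search covered 12 windows for 8 of the genes. HSF1 and CRYAB had no window in it, so their promoters were not examined. At least 1 of the shorter motifs was in 4 of these windows, against 13.5% of all 35116 windows of the same length, and a 3-unit form was in 2, against 0.490% of all windows. The 3 sequences printed here are the 250 bases before the start in the windows of HSP90AA1 and HSP90AB1 that hold 3-unit forms, and in the window of HSPB1. They are written 5′ to 3′ along the gene, with motif letters in capitals.
HSP90AA1, chr14:102087045-102087294, minus strand: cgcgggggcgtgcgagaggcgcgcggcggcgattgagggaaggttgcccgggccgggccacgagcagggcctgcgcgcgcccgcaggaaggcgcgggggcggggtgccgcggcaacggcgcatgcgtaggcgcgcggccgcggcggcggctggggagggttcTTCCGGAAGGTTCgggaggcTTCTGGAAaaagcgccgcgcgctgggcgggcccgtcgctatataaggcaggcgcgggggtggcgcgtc
HSP90AB1, chr6:44247693-44247942, plus strand: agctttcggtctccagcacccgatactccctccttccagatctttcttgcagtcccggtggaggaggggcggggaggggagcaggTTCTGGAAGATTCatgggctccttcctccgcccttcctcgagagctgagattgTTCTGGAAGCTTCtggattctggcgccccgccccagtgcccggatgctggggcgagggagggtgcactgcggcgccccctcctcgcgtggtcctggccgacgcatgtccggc
HSPB1, chr7:76302423-76302672, plus strand: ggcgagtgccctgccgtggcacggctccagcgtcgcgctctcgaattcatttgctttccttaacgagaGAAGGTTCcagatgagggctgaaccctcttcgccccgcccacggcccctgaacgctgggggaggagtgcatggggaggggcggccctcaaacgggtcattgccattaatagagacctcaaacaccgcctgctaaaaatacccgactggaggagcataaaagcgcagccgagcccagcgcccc
Positions count the first base of a motif from the transcript start. In HSP90AA1 the 3-unit run TTCCGGAAGGTTC lay at -88, followed by TTCTGGAA at -68. The HSP90AB1 window, at the most downstream of 3 RefSeq starts, held the 3-unit runs TTCTGGAAGATTC and TTCTGGAAGCTTC, at -165 and -112. HSPB1 held GAAGGTTC at -182. HSPB8 held GAATATTC at -88 and GAAGTTTC at position 4 after the start. The letters were not in the windows of HSPH1, HSPA4, BAG3 and HSF2, nor in the other windows of HSP90AA1 and HSP90AB1. These matches describe sequence and are not measured binding sites. The HSPH1 window belongs to a start 461 bases upstream of the principal transcript in GENCODE release 29. In the windows with motifs, the nearest principal start lay at -147 in HSP90AA1, -77 in HSP90AB1, -129 in HSPB1 and -289 in HSPB8. The motifs of HSP90AA1 and HSPB8 thus lay downstream of that principal start, and those of HSP90AB1 and HSPB1 upstream of it. HSP90AB1 also had principal starts at -28 and -14 from its other RefSeq starts, and its motifs lay downstream of those.

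The comparison of mitocurcumin with vehicle asked how transcripts of this chaperone group differed at 9 hours. The cytosolic HSP90 genes HSP90AA1 and HSP90AB1, the HSP110 gene HSPH1, the small heat shock gene HSPB8 and its partner BAG3 rose. HSPA4, HSPB1, HSF1 and HSF2 did not pass the test. Thus 5 of 9 tested genes were higher and 0 lower at an edgeR adjusted p under 0.05, where 14.7% of all tested genes were higher, 17.8% lower and 32.5% either. At an unadjusted p under 0.05 the count lower was 1, HSF1, and DESeq2 gave 0. The median log2 fold change of the 9 genes was 0.40, and that of all tested genes was -0.01. In the same 5 genes every mitocurcumin library lay above every control library, which 21.2% of all tested genes showed. In 0 of the 9 genes the groups lay apart in the other direction, against 23.7% of all tested genes, and 44.9% did so in either direction. In bulk RNA a higher level in every cell and a strong rise in some of the cells cannot be told apart. The genes were chosen with earlier results of these data known.

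Levels are given as CPM, the count scaled to a common library size by the TMM method. Changes are log2 fold changes of mitocurcumin over control ± SE (n = 3 libraries each), tested by the quasi-likelihood test of edgeR with Benjamini-Hochberg adjustment. Library totals ran from 23146822 to 29104681 counts. Of 8 markers of the line 6 were tested, and 0 were higher and 2 lower by edgeR (at an unadjusted p under 0.05, 1 was higher and 2 lower, and DESeq2 gave 1 and 1). For each list in this paragraph the shares over all tested genes were 14.7% higher and 17.8% lower by edgeR. VIM and CD44, both typical of this line, did not pass the test, with 2337 ± 37.3 and 2116 ± 25.03 CPM in the mitocurcumin libraries, against 2163 ± 22.3 and 2095 ± 64.1 CPM in the control libraries (SD, n = 3). The lower genes were ERBB2, which encodes the receptor HER2, at 32.6 ± 2.67 CPM after mitocurcumin and 41.6 ± 6.17 CPM in control cells (edgeR adjusted p = 0.0150), and the keratin gene KRT8, at 209.7 ± 10.2 CPM after mitocurcumin and 233 ± 8.56 CPM in control cells (edgeR adjusted p = 0.0454). Fewer than 2 were lower in 13 of 17 alternatives, and 0 without mitocurcumin replicate 2. The estrogen and progesterone receptor genes ESR1 and PGR did not pass the filter on low counts. Of 12 markers of other cell types 6 passed that filter, and 3 of these were lower after mitocurcumin, where 17.8% of all tested genes were lower. Their summed level was 94.4 to 114 CPM in the mitocurcumin libraries and 130 to 141 CPM in the control libraries, most of it from CD68, a lysosomal protein gene, at 90.8 ± 9.88 CPM after mitocurcumin and 110.7 ± 4.03 CPM in control cells. The part of these markers in the results was not tested. The summed level of 5 nuclear noncoding RNAs, read as a sign of RNA quality, was 5246 to 7716 CPM in the mitocurcumin libraries and 4889 to 5776 CPM in the control libraries. Within it MALAT1 stood at 5319 CPM in mitocurcumin replicate 3, against 3341 and 3096 CPM in mitocurcumin replicates 1 and 2. Of the 5 RNAs 1 was higher and 0 lower by edgeR, at an unadjusted p under 0.05 and by DESeq2. By edgeR the higher one was NEAT1, at 0.65 ± 0.07. The part of RNA quality was not tested either. Beside CD68, the lower markers of other cell types were PECAM1 and ACTA2. PECAM1, an endothelial and blood cell adhesion gene, stood at 6.42 ± 0.358 CPM after mitocurcumin and 12.9 ± 1.83 CPM in control cells (edgeR adjusted p = 2.8e-05). ACTA2, smooth muscle actin, stood at 1.46 ± 0.288 CPM after mitocurcumin and 2.40 ± 0.102 CPM in control cells (edgeR adjusted p = 0.0358). CD3E of T cells and CDH5, a further endothelial gene, were near 0 in both groups, at 0.012 and 0.028 CPM in the mitocurcumin libraries and 0.014 and 0.013 CPM in the control libraries. LYZ, PTPRC and MYH11 passed the filter but not the test. They averaged 4.41, 1.00 and 1.22 CPM after mitocurcumin and 5.32, 1.16 and 1.11 CPM in control cells.

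HSP90AA1 (Entrez 3320, chromosome 14, 102080742 to 102139749, minus strand, GRCh38) stood at 4095, 3555 and 4341 CPM in mitocurcumin replicates 1 to 3, against 2387, 2788 and 2779 CPM in control replicates 1 to 3. The groups did not overlap, mitocurcumin replicate 2 was the lowest treated library and control replicate 1 the lowest of all. The mean was 3997 ± 402 CPM after mitocurcumin and 2651 ± 229 CPM in control cells (SD, n = 3 each), a log2 change of 0.59 ± 0.07 (edgeR adjusted p = 1.9e-05).

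HSP90AB1 (Entrez 3326, chromosome 6, 44246194 to 44253883, plus strand) stood at 3548, 3266 and 3560 CPM in the mitocurcumin libraries, against 2452, 2682 and 2713 CPM in the control libraries. It was again lowest among treated libraries in replicate 2 and among controls in replicate 1, and no treated library reached down to a control. Its mean was 3458 ± 166 CPM after mitocurcumin and 2616 ± 143 CPM in control cells, a log2 change of 0.40 ± 0.06 (edgeR adjusted p = 3.4e-05). By mean CPM over all libraries HSP90AA1 and HSP90AB1 stood at percentile 99.96 and 99.95 of all tested genes. Together they took 0.760%, 0.691% and 0.784% of all counts in the mitocurcumin libraries, against 0.486%, 0.546% and 0.546% in the control libraries.

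The ratio of HSP90AA1 to HSP90AB1 counts, which no scaling between libraries affects, was 1.15, 1.09 and 1.22 in the mitocurcumin libraries, against 0.974, 1.04 and 1.02 in the control libraries. All treated libraries lay above all controls, with a log2 difference of 0.19 and an exact two-sided permutation p of 0.1, the smallest that 3 against 3 libraries can give, so the design cannot reach 0.05 for this value. This ratio and the other ratios below were chosen after the values were seen, and each p stayed at 0.1 when adjusted over the 3 ratios. The pair can be told apart by sequence, as their coding sequences were identical at 76.1% of aligned bases and the longest run shared by their principal GENCODE transcripts was 23 bases.

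**Figure D1:**
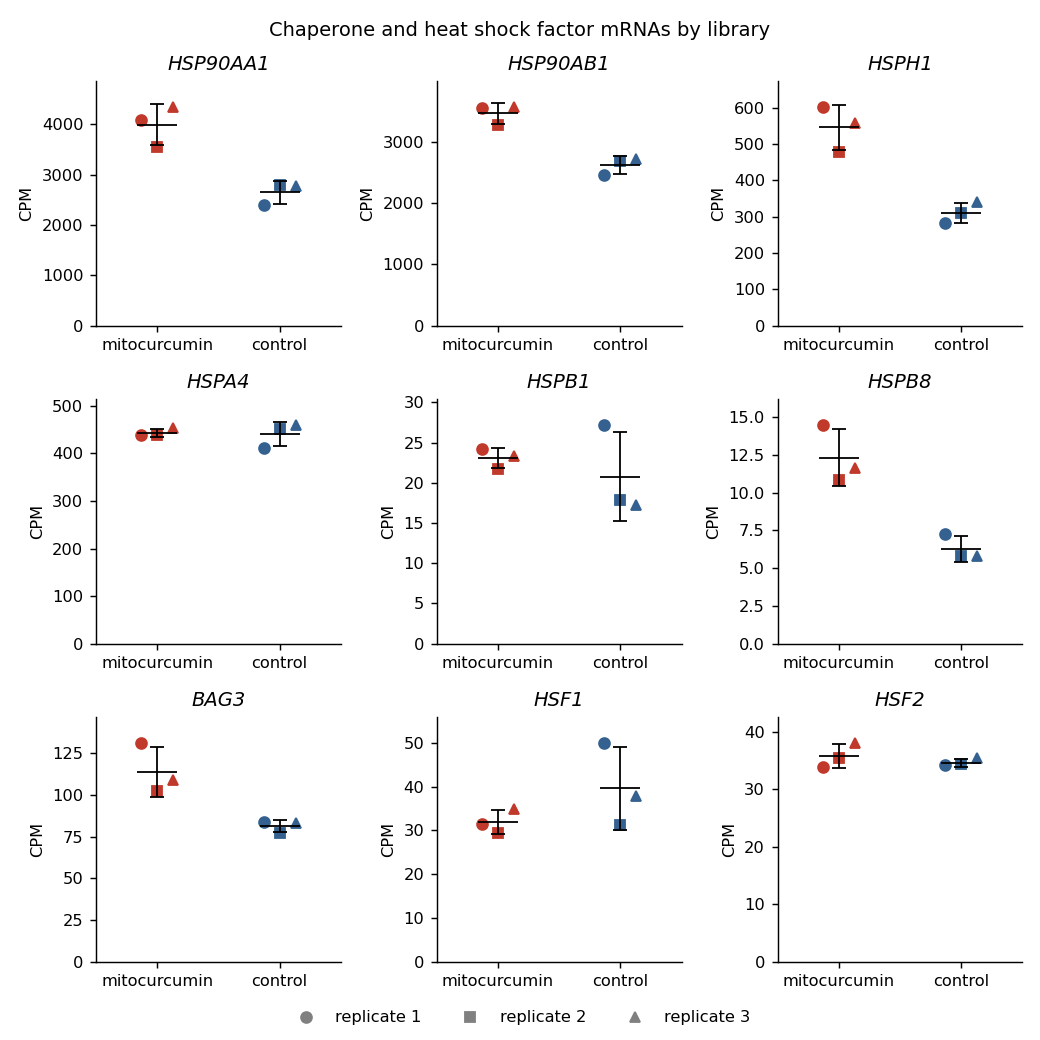
Level in CPM (vertical axes, from 0) of the 9 tested genes in each mitocurcumin library (left, red) and control library (right, blue). Symbols mark the replicate and black bars the mean ± SD of 3 libraries. In HSP90AA1, HSP90AB1, HSPH1, HSPB8 and BAG3 every treated library lies above every control, while HSPB1 and HSF1 have a high control replicate 1.

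Rows of gene copies that could take reads from the HSP90 genes held few or no counts. How reads matching several genes were assigned is not given in the sources used here, so these counts do not show whether reads moved between copies. Of 13 pseudogene rows of HSP90AA1, HSP90AB1 and HSPB1, 12 were listed at 0 in every library. The remaining row, HSP90AB4P, held 29.5, 23 and 48.6 estimated counts in the mitocurcumin libraries and 15.5, 15 and 21 in the control libraries, and did not pass the test (log2 change 0.86 ± 0.36, edgeR adjusted p = 0.0793). HSP90AA1 overlaps WDR20 on the opposite strand and HSP90AB1 overlaps POLR1C on the same strand. Each of these neighbours held at most 1227 counts in a library, far below the HSP90 genes.

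Of 2 organelle forms of HSP90, 0 were higher by edgeR, at an unadjusted p under 0.05 or by DESeq2, and 1 was lower. By edgeR 14.7% of all tested genes were higher and 17.8% lower, so counts out of 2 genes say little. HSP90B1, the chaperone of the endoplasmic reticulum also called GRP94, stood at 1766, 1836 and 1802 CPM in the mitocurcumin libraries, against 1758, 1967 and 1986 CPM in the control libraries, and did not pass the test (log2 change -0.08 ± 0.06, edgeR adjusted p = 0.308). TRAP1, the mitochondrial HSP90, was lower by the test at -0.24 ± 0.08 (edgeR adjusted p = 0.0260), with 43.8 ± 2.99 CPM after mitocurcumin and 51.9 ± 3.59 CPM in control cells. That call was lost in 5 of 17 alternatives, for instance without mitocurcumin replicate 2, where the edgeR adjusted p was 0.169 (0.0101 to 0.242 over the alternatives).

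HSPH1, which encodes the stress-inducible HSP110 protein HSP105 (Entrez 10808, chromosome 13, 31134973 to 31162388, minus strand), stood at 602, 479 and 558 CPM in the mitocurcumin libraries, against 284, 310 and 340 CPM in the control libraries. The lowest treated library, replicate 2, was well above the highest control. The mean was 546 ± 62.4 CPM after mitocurcumin and 311 ± 27.8 CPM in control cells, or 1.75 times the control mean, with a log2 change of 0.81 ± 0.08 (edgeR adjusted p = 1.7e-06). This was the lowest adjusted p of the 9 genes tested.

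HSPA4, which encodes the related and largely constitutive HSP110 protein APG-2 (Entrez 3308, chromosome 5, 133052013 to 133106449, plus strand), stood at 439, 439 and 453 CPM in the mitocurcumin libraries, against 412, 451 and 459 CPM in the control libraries. The treated libraries lay inside the range of the controls. Its log2 change was 0.01 ± 0.06, with a 95% interval of -0.11 to 0.12 (edgeR adjusted p = 0.929), so the interval leaves out a change as large as that of HSPH1. Within each library the ratio of HSPH1 to HSPA4 counts was 1.37, 1.09 and 1.23 after mitocurcumin, against 0.689, 0.687 and 0.740 in control cells. The log2 difference of this ratio was 0.80 (exact two-sided permutation p = 0.1, the smallest possible). The coding sequences of the pair were identical at 68.03% of aligned bases.

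Of 6 other tested exchange factors of the HSP70 cycle, 2 were higher and 0 lower, with a median log2 change of 0.09. At an unadjusted p under 0.05 or by DESeq2, 0 were lower. Over all tested genes edgeR called 14.7% higher and 17.8% lower. The higher genes were GRPEL2, a mitochondrial exchange factor, at 0.55 ± 0.08, and HSPA4L, the third cytosolic HSP110 gene, at 0.21 ± 0.06. HSPA4L lost its call without mitocurcumin replicate 3 (edgeR adjusted p = 0.0852, the highest of the 17 alternatives, whose lowest was 0.00151).

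HSPB8, a small heat shock protein that works with BAG3 (Entrez 26353, chromosome 12, 119178931 to 119194746, plus strand), had the largest fold change of the group at a low level. It stood at 14.5, 10.9 and 11.7 CPM in the mitocurcumin libraries, against 7.29, 5.80 and 5.80 CPM in the control libraries. All treated libraries exceeded all controls, and in each group replicate 1 was the highest. The mean was 12.3 ± 1.89 CPM after mitocurcumin and 6.30 ± 0.859 CPM in control cells, a log2 change of 0.97 ± 0.15 (edgeR adjusted p = 9.2e-05). It rests on 255 to 358 counts per mitocurcumin library and 136 to 172 per control library.

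HSPB1, which encodes HSP27 (Entrez 3315, chromosome 7, 76302673 to 76304292, plus strand), stood at 24.2, 21.7 and 23.3 CPM in the mitocurcumin libraries, against 27.2, 17.9 and 17.3 CPM in the control libraries. The treated libraries lay close together, while control replicate 1 exceeded all of them and the other controls lay below. The log2 change was 0.15 ± 0.14, with a 95% interval of -0.15 to 0.46 (edgeR adjusted p = 0.457). Without control replicate 1 the change was 0.39 and passed (edgeR adjusted p = 0.00175). The adjusted p ranged between 0.00131 and 0.837 over the 17 alternatives. The ratio of HSPB8 to HSPB1 counts was 0.599, 0.501 and 0.500 in the mitocurcumin libraries, against 0.268, 0.325 and 0.337 in the control libraries. The log2 difference was 0.78 (exact two-sided permutation p = 0.1, the smallest possible).

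CRYAB, alpha B-crystallin (Entrez 1410, chromosome 11, 111908564 to 111923740, minus strand), was not detectable at this depth in 5 of 6 libraries. It held 0, 0 and 4 counts in the mitocurcumin libraries and 0 in each control library. A count of 0 allows up to 3 counts, or 0.104 to 0.128 CPM depending on the library, for counting error only. The 4 counts equal 0.139 CPM. No fold is given. Of 8 further small heat shock genes listed, only HSPB11, which stands in the table as IFT25 and encodes a subunit of the ciliary transport machinery, was tested, and it was lower at -0.51 ± 0.09. The other 7 held at most 12 counts in any library.

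**Figure D2:**
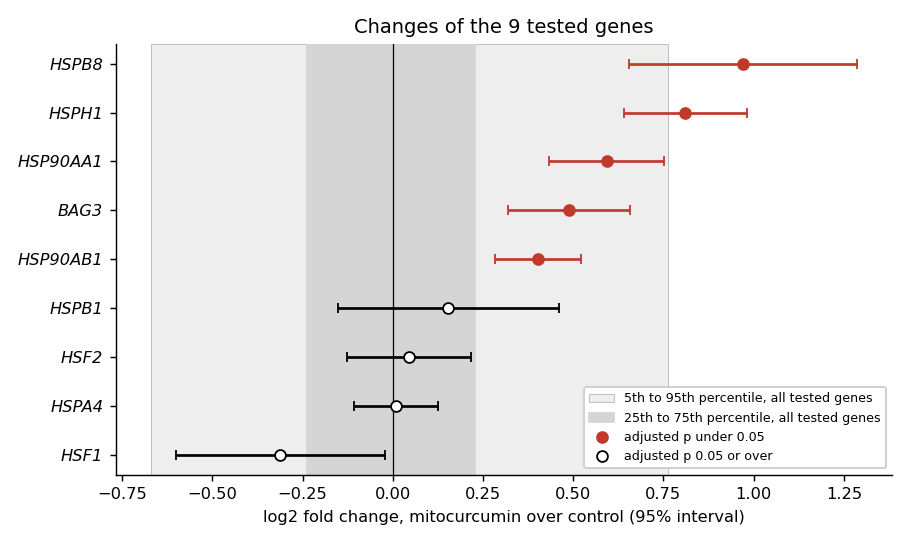
Log2 fold change of mitocurcumin over control (horizontal axis) with its 95% interval for the 9 tested genes, filled in red at an adjusted p under 0.05. Grey bands span the 5th to 95th (-0.67 to 0.76) and the 25th to 75th (-0.24 to 0.23) percentile of all 16481 tested genes. HSPB8 and HSPH1 lie beyond the outer band, HSP90AA1, BAG3 and HSP90AB1 lie above the inner band, and HSF1 lies below it.

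BAG3, a cochaperone that joins HSP70 to small heat shock proteins and passes misfolded clients to autophagy (Entrez 9531, chromosome 10, 119651380 to 119677819, plus strand), stood at 131, 102 and 109 CPM in the mitocurcumin libraries, against 83.4, 76.9 and 83.3 CPM in the control libraries. The groups did not overlap, and the treated libraries were more spread than the controls. Its mean was 114 ± 15.03 CPM after mitocurcumin and 81.2 ± 3.74 CPM in control cells, a log2 change of 0.49 ± 0.08 (edgeR adjusted p = 1.9e-04). Without mitocurcumin replicate 1, its highest library, the change was 0.39.

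Of 5 other BAG genes tested, 0 were higher, by edgeR, at an unadjusted p under 0.05 or by DESeq2, and 1 was lower, BAG4, a regulator of TNF receptor signalling, at -0.25 ± 0.08. The call of BAG4 was lost in 5 of 17 alternatives (edgeR adjusted p = 0.0225, and 0.00204 to 0.117 over the alternatives). Without control replicate 1, 1 of the 5 was higher, and without that library and mitocurcumin replicate 2, 2 were. A difference in change between BAG3 and the other BAG genes was not tested. Of 12 genes of chaperone-assisted selective autophagy, the route that BAG3 and HSPB8 serve, 3 were higher and 3 lower, with a median of 0.01. Over all tested genes the shares were 14.7% higher and 17.8% lower. SQSTM1, the autophagy receptor p62, rose by 1.24 ± 0.06, to 574 ± 27.2 CPM against 243 ± 18.4 CPM in control cells. WIPI1, an early autophagosome protein, rose by 0.69 ± 0.12, and LATS1, a kinase of the Hippo pathway, rose too. The lower genes were FLNC, a filamin that BAG3 helps to clear, SYNPO, an actin-binding protein, and TARDBP, an RNA-binding protein. Without mitocurcumin replicate 2 only 1 was lower. The ubiquitin ligase STUB1, or CHIP, did not pass (-0.29 ± 0.11, edgeR adjusted p = 0.0597).

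HSF1, the master regulator of the response (Entrez 3297, chromosome 8, 144291604 to 144314720, plus strand), stood at 31.5, 29.4 and 34.8 CPM in the mitocurcumin libraries, against 49.9, 31.3 and 37.8 CPM in the control libraries. The groups overlapped, and control replicate 1 lay far above the rest. The log2 change was -0.31 ± 0.13, with a 95% interval of -0.60 to -0.02 for this gene taken alone (edgeR adjusted p = 0.0950). Without control replicate 2 the change was -0.45 and passed (edgeR adjusted p = 0.00510), and without control replicate 1 it was -0.11 and did not (edgeR adjusted p = 0.382). The adjusted p ranged between 0.00510 and 0.766 over the 17 alternatives. HSF1 overlaps DGAT1 on the opposite strand, and whether the counting used strand was not given in the sources used here.

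HSF2, a factor that can pair with HSF1 (Entrez 3298, chromosome 6, 122399551 to 122433119, plus strand), stood at 33.8, 35.4 and 38.0 CPM in the mitocurcumin libraries, against 34.2, 34.4 and 35.5 CPM in the control libraries. The control libraries lay inside the range of the mitocurcumin libraries. Its log2 change was 0.05 ± 0.08, with a 95% interval of -0.13 to 0.22 (edgeR adjusted p = 0.717). Among 13 further tested heat shock factors and HSF1 regulators, 3 were higher and 3 lower, with a median of 0.04. Over all tested genes 14.7% were higher and 17.8% lower. The higher genes were HSBP1L1, a relative of the HSF1-binding protein HSBP1, at 0.81 ± 0.18, IER5, an immediate early gene product that activates HSF1, at 0.37 ± 0.08, and FBXW7, a ubiquitin ligase subunit that marks HSF1 for degradation. The lower genes were PARP1, SMARCA4 and RPA1, which act broadly on chromatin and DNA.

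**Figure D3:**
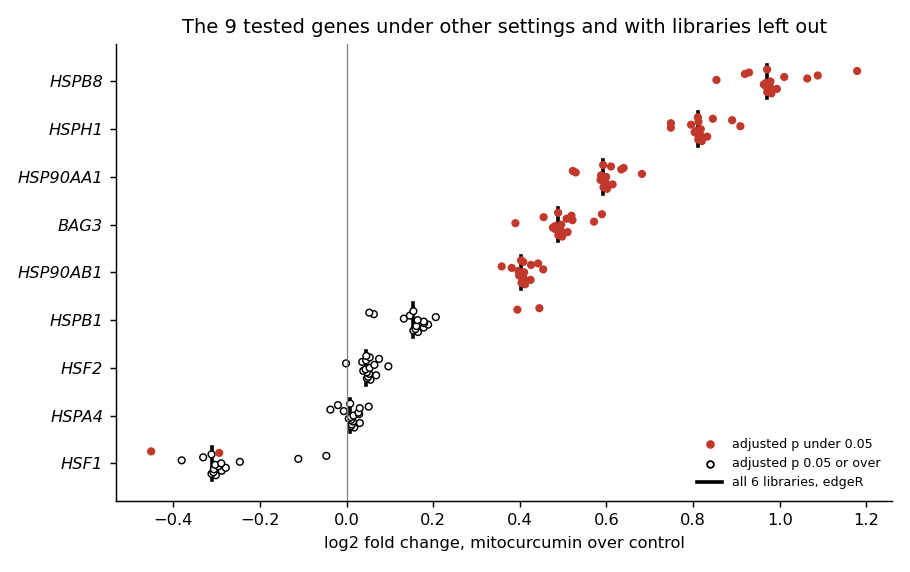
Log2 fold change of mitocurcumin over control (horizontal axis) for the 9 tested genes in each of 17 alternative settings or with libraries left out (points) and in the fit of all 6 libraries (black line). Red points have an adjusted p under 0.05. HSPB8, HSPH1, HSP90AA1, BAG3 and HSP90AB1 stay red throughout, while HSPB1 and HSF1 are each red in 2 alternatives.

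Per kilobase of principal GENCODE transcript, mean levels in the mitocurcumin libraries were 1293 ± 62.2 CPM for HSP90AB1, 1183 ± 119 for HSP90AA1, 105 ± 12.0 for HSPH1 and 91.9 ± 1.64 for HSPA4. Below them came BAG3 at 44.3 ± 5.85, HSPB1 at 25.4 ± 1.36, HSF1 at 14.9 ± 1.27, HSF2 at 14.03 ± 0.824 and HSPB8 at 5.73 ± 0.879 CPM per kilobase. In the control libraries HSP90AB1 had 978 ± 53.5, HSP90AA1 785 ± 67.7, HSPA4 91.4 ± 5.20 and HSPH1 59.98 ± 5.36 CPM per kilobase. BAG3 had 31.6 ± 1.46, HSPB1 22.8 ± 6.10, HSF1 18.5 ± 4.41, HSF2 13.6 ± 0.272 and HSPB8 2.93 ± 0.399 CPM per kilobase there. Thus HSPA4 exceeded HSPH1 in every control library, while HSPH1 exceeded HSPA4 within every mitocurcumin library. Across the mitocurcumin libraries their ranges overlapped, with HSPH1 from 92.2 and HSPA4 up to 93.8 CPM per kilobase. Ranges also overlapped after mitocurcumin between the HSP90 genes and between HSF1 and HSF2, and in control cells between HSPB1 and HSF1. Within libraries, HSP90AB1 exceeded HSP90AA1 in every mitocurcumin library and HSPB1 exceeded HSF1 in every control library. The order of HSF1 and HSF2 differed between mitocurcumin libraries. Per kilobase of coding length HSP90AA1 stood above HSP90AB1 after mitocurcumin, at 1820 against 1592 CPM. In control cells it was level with HSP90AB1, at 1207 against 1204 CPM, so their order depends on the length used. The low end also depended on it, as HSPB8 has 588 coding bases in a transcript of 2152. Per kilobase of coding length after mitocurcumin, HSF2 averaged 22.2, HSPB8 20.98 and HSF1 20.1 CPM. In control cells HSPB8 stayed the lowest tested gene at 10.7 CPM, with HSF2 next at 21.6 CPM.

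Mitocurcumin replicate 2 was the lowest treated library in all 5 genes that rose, and in 7 of 9 tested. How often this held over all tested genes was not counted. The column header of mitocurcumin replicate 2 carried a sample number far from those of the other libraries. What that number marks is not given in the sources used here, and its part was not tested. Without mitocurcumin replicate 2 the changes were 0.68 for HSP90AA1, 0.45 for HSP90AB1, 0.91 for HSPH1, 1.06 for HSPB8 and 0.57 for BAG3, and all 5 kept their call. The control libraries were most spread in HSPB1 and HSF1, with coefficients of variation of 26.7% and 23.8%, against 5.37% and 8.55% in the mitocurcumin libraries. In those genes control replicate 1 was the highest control, and in HSP90AA1, HSP90AB1 and HSPH1 it was the lowest.

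**Figure D4:**
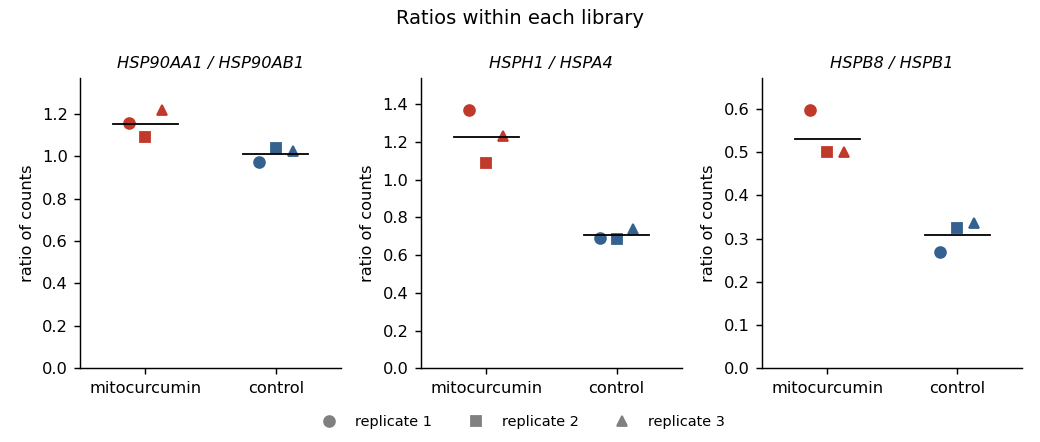
Ratio of estimated counts within each library (vertical axes, from 0) for HSP90AA1 over HSP90AB1, HSPH1 over HSPA4 and HSPB8 over HSPB1, in mitocurcumin (left, red) and control (right, blue) libraries. Lines mark geometric means of 3 libraries. In each pair all treated libraries lie above all controls.

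Among 25 HSP90 cochaperones, which load clients onto HSP90 or set the pace of its ATP cycle, 5 were higher and 4 lower. Over all tested genes 14.7% were higher and 17.8% lower. The median log2 change of the cochaperones was 0.03. The higher genes were FNIP1, a folliculin partner that slows the ATPase, at 0.64 ± 0.06, AHSA1, the activator of the ATPase, at 0.44 ± 0.06, and TTC4, CHORDC1 and CACYBP. The lower genes included FKBP5, an immunophilin of steroid receptor complexes, at -0.71 ± 0.07, and PPP5C and RPAP3. FKBP5 averaged 58.4 ± 4.04 CPM after mitocurcumin and 95.6 ± 7.08 CPM in control cells. STIP1, which bridges HSP70 and HSP90, stood at 442, 405 and 449 CPM in the mitocurcumin libraries, against 400, 407 and 419 CPM in the control libraries, and did not pass (0.08 ± 0.05, edgeR adjusted p = 0.287). The kinase-specific cochaperone CDC37 did not pass either, at -0.03 ± 0.06 (edgeR adjusted p = 0.775), nor did PTGES3, or p23, at 0.15 ± 0.06 (edgeR adjusted p = 0.0518). Without control replicate 1 and mitocurcumin replicate 2, 8 of the 25 were higher.

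Of 14 tested HSP70 and HSP40 partners of these chaperones, 10 were higher and 0 lower, with a median of 0.53. At an unadjusted p under 0.05, 1 was lower, and 0 by DESeq2. For each list in this paragraph the shares over all tested genes were 14.7% higher and 17.8% lower by edgeR. The largest changes were HSPA6 and HSPA1A, both stress-inducible HSP70 genes. HSPA6 averaged 37.3 ± 12.3 CPM after mitocurcumin and 0.338 ± 0.260 CPM in control cells, with a fitted log2 change of 6.80 ± 0.49. That change rests on control replicates 1 to 3 at 0.339, 0.0773 and 0.597 CPM, where 3 counts equal 0.127, 0.116 and 0.128 CPM. The HSPA6 change ran from 6.31 to 7.50 over the 17 alternatives. HSPA1A averaged 514 ± 105 CPM after mitocurcumin and 64.3 ± 5.35 CPM in control cells (edgeR adjusted p = 1.9e-05), and shares nearly all of its sequence with HSPA1B, so its count is uncertain. HSPA8, the constitutive HSP70, rose by 0.51 ± 0.05, to 3934 ± 98.8 CPM against 2761 ± 128 CPM in control cells. Of 18 other HSF1 targets 13 were higher and 0 lower, and 0 were lower at an unadjusted p under 0.05 or by DESeq2, with a median of 0.31, though 8 of the 18 also stand in another list. The largest changes there were DNAJB1, the HSP40 that regulates HSF1, at 1.57 ± 0.09, and ZFAND2A, a proteasome-associated zinc finger protein, at 1.30 ± 0.11. The chaperonin CCT and prefoldin, which fold actin and tubulin, had 4 higher and 0 lower of 14, and 0 lower at an unadjusted p under 0.05 or by DESeq2, with a median of 0.03. These were PFDN2 at 0.38 ± 0.11, PFDN5 at 0.27 ± 0.09, TCP1 and CCT4. The count was 1 without mitocurcumin replicate 3 and 2 without control replicate 3.

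**Figure D5:**
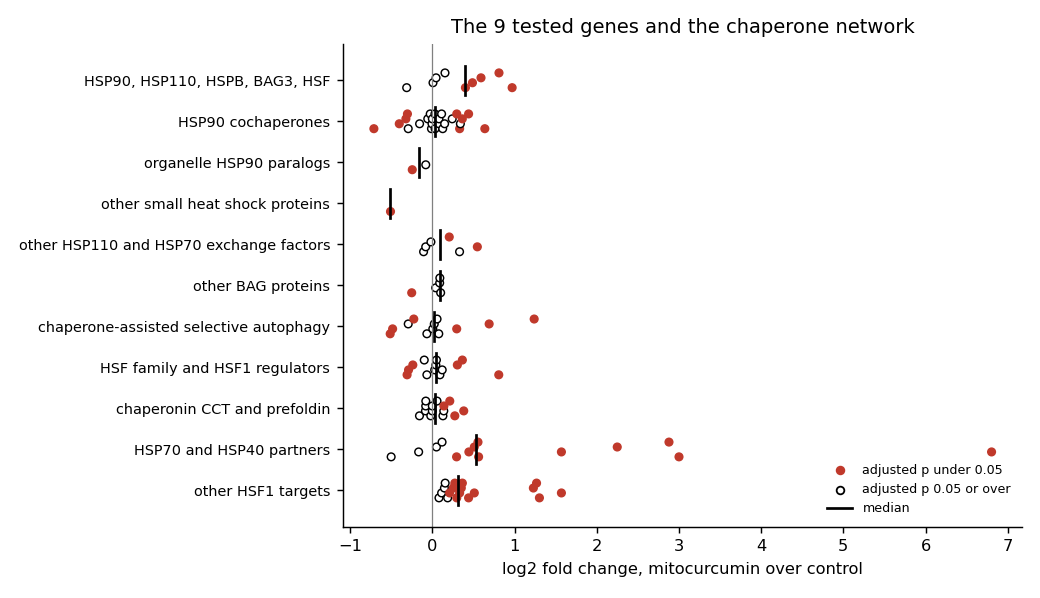
Log2 fold change of mitocurcumin over control (horizontal axis) of each tested gene in the 10 examined genes (top row) and in other lists of the chaperone network (rows). Red points have an adjusted p under 0.05 and black lines mark the median, 0.40 in the top row, 0.03 for HSP90 cochaperones and 0.53 for the HSP70 and HSP40 partners.

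The genes whose pattern over the 6 libraries was most like the mean standardized profile of the 9 tested genes were ZNF627, TRAF3, RNF13, DSTYK and RNF19B, with Pearson r of 0.997 to 0.989 among genes averaging 5 CPM or more. Their log2 changes ran from 0.22 ± 0.10 for ZNF627, which did not pass the test (edgeR adjusted p = 0.109), to 0.80 ± 0.09 for RNF19B. The 6 libraries fall in 2 groups, and each r is a description without a test. Of the 9 genes, which are themselves part of the profile, HSPH1, HSP90AA1 and HSP90AB1 followed the profile most closely, with r of 0.951, 0.948 and 0.942, HSPA4 hardly did at 0.166, and HSF1 ran against it at -0.36.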

How the data were processed

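Stranded libraries were prepared from poly(A)-captured RNA, per the labels' protocols. The authors deposited estimated counts per RefSeq gene (per the file headers) on GRCh38 (per the submitters' processing notes), of which 20.1% to 21.4% of values above 0 were exactly whole as written, with no tolerance. Their deposited log2 values matched the log2 of these counts over a library-specific factor, the offset varying by at most 2.5e-06 within a library, with lower values listed at 0. Aligner, counting tool and use of strand are not given in the sources used here. Columns were matched to samples by treatment and replicate numeral. The design had assumed whole counts, so values were rounded. Genes were filtered with filterByExpr (minimum count 10, minimum total 15) and all 16481 kept were fitted together in edgeR 4.0.16 (R 4.3.3), with TMM scaling, robust dispersions and group as the only term. The SE was the log2 change over the root of F, and 95% intervals used the moderated degrees of freedom. Named were the 10 genes, their pseudogene rows, the 2 called genes of largest change in each list (mean CPM at least 1) and the 5 most alike in profile; other genes were named after their values were seen. The genes and lists were chosen with earlier results of these data known. Alternatives were DESeq2 1.42.0, limma 3.58.1 (voom, and on the deposited log2 values), other scalings and filters, unrounded counts, pseudogene rows summed in, a replicate term and left-out libraries. Lengths and identities used GENCODE release 29 transcripts, aligned with Biopython 1.88; identity was computed on coding sequences in place of the planned protein alignment.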

Additional observations from a re-analysis of the deposited data

How the results depend on the processing

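HSP90AA1, HSP90AB1, HSPH1, HSPB8 and BAG3 were higher and passed in all 17 alternatives, with log2 changes of 0.52 to 0.68, 0.36 to 0.45, 0.75 to 0.91, 0.85 to 1.18 and 0.39 to 0.59. With each library left out in turn, 5 to 6 of the 9 genes were higher and 0 to 1 lower. The sixth was HSPB1, without control replicate 1, and the 1 lower was HSF1, without control replicate 2. Over the left-out libraries HSPB1 ran from 0.0524 to 0.39, HSF1 from -0.45 to -0.11, HSPA4 from -0.0375 to 0.0510 and HSF2 from -0.0013 to 0.10. The sign changed for HSPA4 without control replicate 1 and without mitocurcumin replicate 3 (-0.00655), and for HSF2 without mitocurcumin replicate 3. Without both control replicate 1 and mitocurcumin replicate 2, a choice made after seeing the data, HSPB1 changed by 0.45 (edgeR adjusted p = 0.00131), HSPA4 by -0.0200 and HSF1 by -0.0467. The cause of these shifts was not tested. Same-numbered deviations from the group means correlated at 0.101, 0.0170 and -0.0101, and differently numbered ones between -0.109 and 0.0909. These values over all tested genes cannot settle whether the replicate numbers pair the libraries. The fit with a replicate block called HSF1 lower at -0.29 (edgeR adjusted p = 0.0189), so 1 gene was lower. It called 8 HSP90 cochaperones higher, against 5, and over all genes 2643 higher and 3163 lower, against 2425 and 2938. Those totals ran from 1850 to 2872 higher and from 2165 to 3216 lower over the alternatives. At this depth CRYAB could not be tested.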
